A study of Homo sapiens with 4 samples.

Results

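Total RNA was compared between NCI-H1944 cells exposed to an inhibitor of the kinase MPS1 and cells exposed to the solvent. NCI-H1944 is an established human lung adenocarcinoma line, here with the genotype labelled WT. The treated group, MPS1i Input, received BAY-1217389 at 100 nM for 48 h and was then kept without drug for 24 h. The control group, DMSO Input, received DMSO on the same schedule. In both, 10% of the lysate was taken as total RNA, and the remainder served a pull-down with the dsRNA antibody J2 that is not analysed here. The design of the series asks how dsRNA-forming transcripts differ after the pulse, and the Input libraries give the total RNA behind that question. These are 2 of the 4 libraries of the series, chosen by their labels as Input, with 1 library per group. The difference between them therefore has no replicate check, and every value compares 2 libraries.

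The TTK gene encodes MPS1, an enzyme that starts the spindle checkpoint signal. The signal keeps a cell in mitosis until all its chromosomes have spindle attachments. Cells that divide without it missegregate chromosomes. Micronuclei and misplaced nucleic acid can then be read by cytosolic sensors that switch on interferon-stimulated genes, while p53 is known to induce genes that halt the cell cycle after damage. Total RNA libraries, unlike polyadenylated ones, also hold introns of unfinished transcripts and RNA running past gene ends, so they can show where along a gene the RNA lies.

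The deposited values are raw read counts in 2310971 stranded regions, of which 11 lie in the mitochondrial genome and 47.4% had no read in either library. The summed count was 6381610 in DMSO and 4844956 in MPS1i. Unless another scale is named, every log2 value below is the ratio MPS1i over DMSO of counts scaled to these sums. A 95% counting interval stands in brackets where one is given. Where at most 1 read was counted per region, the scale was the number of regions with reads, 940751 in DMSO and 484849 in MPS1i. A gene was measured when its 2 counts summed to at least 50. A gene with few reads in 1 library can pass only through the other, so this minimum shapes the shares of measured genes called. It was called higher or lower when the ratio was 2-fold or more and the exact (Clopper-Pearson) counting interval excluded 1. Reads without molecular identifiers are not independent molecules, so the intervals cover counting error only. In bulk RNA, fewer cells of a type and less RNA per cell cannot be told apart.

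The libraries differed in how their reads were spread, and this touches every result that follows. Outside the mitochondrial genome, DMSO had reads in 940740 regions and MPS1i in 484838. With DMSO thinned at random to the MPS1i total, it still had reads in 826628 regions, and MPS1i reached 58.7% of that number. With the reads outside the mitochondrial genome made equal, at 3865362, a choice made after seeing the data, thinned DMSO had reads in 848195 regions and MPS1i reached 57.2%. Regions with exactly 1 read numbered 420511 in DMSO and 134082 in MPS1i, or 44.7% and 27.7% of the regions with reads. Regions holding 3 to 10 reads numbered 217722 in DMSO at that equal depth and 227388 in MPS1i. The part of this spread in the results was not tested. Counting at most 1 read per region left 9 members of the gene lists below called higher, 8 of them interferon-stimulated genes and 1 a ribosomal protein gene, against 79 in all reads. No member of any other list was called higher under that count.

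**Figure D1:**
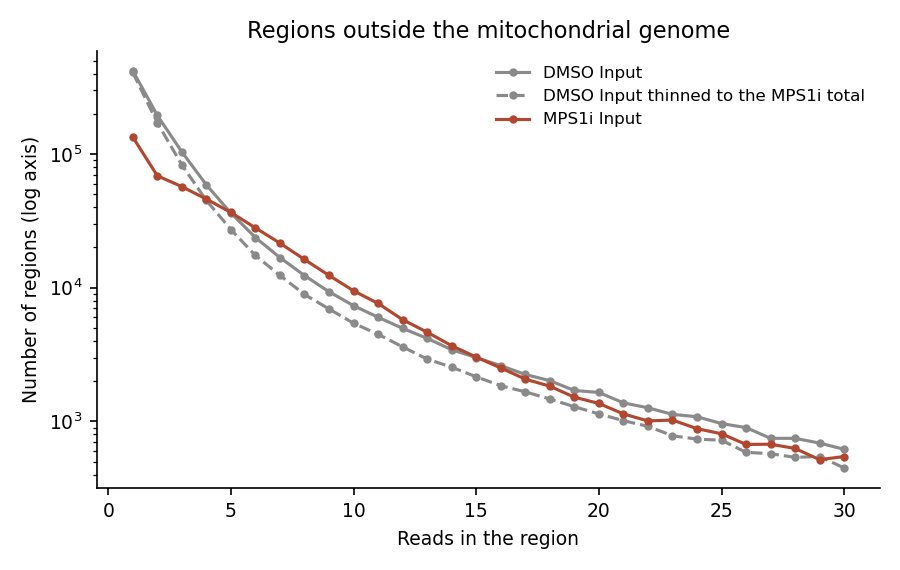
Number of regions outside the mitochondrial genome (log axis) holding 1 to 30 reads in DMSO Input, in DMSO Input thinned to the MPS1i total, and in MPS1i Input. The MPS1i line starts lower, at 134082 regions with 1 read against 420511 in DMSO, and crosses the thinned DMSO line at about 4 reads.

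Of 10180 measured genes, 1307 (12.8%) were called higher and 1707 (16.8%) lower in MPS1i, together 29.6%, and the median log2 ratio was -0.22. Sense regions overlapping an annotated exon held 10.0% of DMSO reads and other sense regions 43.7%, so most gene sums are mainly intronic RNA. Of the measured genes, 7287 had 0 reads in exon-overlapping regions, so a call need not hold for exons. When at most 1 read was counted per region, 5109 genes were measured, of which 91 were called higher and 1064 lower.

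The 10 highest genes included 3 interferon-stimulated genes and 3 long noncoding RNAs. MX2, a dynamin-like GTPase that blocks nuclear import of viruses (chromosome 21, 41361943 to 41409390, plus strand, GRCh38), had 1 read in DMSO and 293 in MPS1i, a log2 ratio of 8.01 [6.10, 13.90]. RSAD2 (viperin, an enzyme that makes a chain-terminating nucleotide) had 3 and 138 reads, and TRIM22, an antiviral ubiquitin ligase, had 3 and 133. Both stood between 5.65 and 5.70. FBXO39, the gene of an F-box protein, had 3 and 141 reads, none of them in exon-overlapping regions. The long noncoding RNAs LINC01285 (3 and 267), AC073365.1 (1 and 115) and LINC01886 (2 and 104) were as far apart, and each was almost absent from DMSO. Of the remaining genes in this group, DMSO had 0 reads for GBP1P1, a pseudogene of the interferon-induced GTPase GBP1, against 103 in MPS1i. With a floor of 3 counts in DMSO that is at least 45.2-fold higher. C3orf85 (0 and 71) and the adhesion receptor gene ADGRF2 (0 and 54) were at least 31.2-fold and 23.7-fold higher. Of these highest genes only MX2 and GBP1P1 had reads in exon-overlapping regions, so the values of the others do not show mature transcripts.

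The 10 lowest genes were all protein-coding, and none had a read in an exon-overlapping region. CDC45, a subunit of the replicative helicase (chromosome 22, 19479459 to 19520612, plus strand, GRCh38), had 208 reads in DMSO against 6 in MPS1i, a log2 ratio of -4.61 [-6.18, -3.57]. DGCR8, the partner of DROSHA in cutting primary microRNAs (chromosome 22, 20080232 to 20111877), had 143 and 5, at -4.31 [-6.09, -3.18]. MCM6, of the same helicase as CDC45, had 215 and 21. SMAD4, the shared mediator of TGF-beta and BMP signals, had 112 and 9, at -3.17 [-4.41, -2.26]. CEP78, a centriole protein, had 89 and 5. The others with the most extreme intervals were DBT (120 and 10), HEATR6 (85 and 6), FLAD1 (55 and 3), NCLN (72 and 5) and CTU1 (186 and 20). DBT and FLAD1 are metabolic enzymes of branched-chain keto acid breakdown and of FAD synthesis, and CTU1 modifies tRNA.

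**Figure D2:**
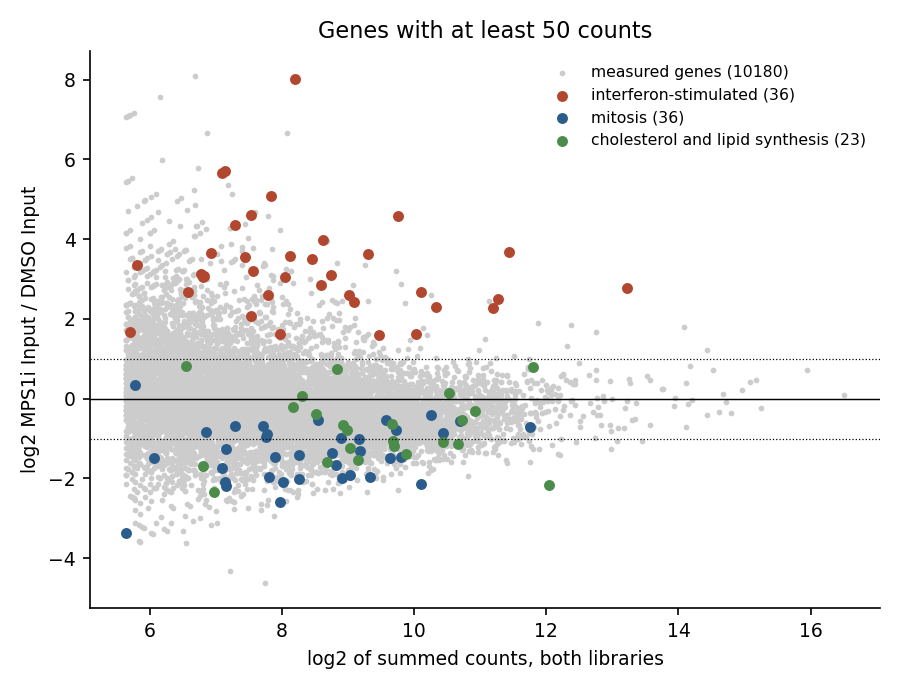
Each point is a gene outside the mitochondrial genome with at least 50 counts, placed by log2 of its summed counts (x) and by the log2 ratio MPS1i over DMSO (y); dotted lines mark 2-fold. The 36 measured interferon-stimulated genes all lie above the upper dotted line, and 21 of the 36 mitosis genes are called lower.

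Interferon-stimulated genes were higher throughout. All 36 measured members of the 42 listed were called higher, against 12.8% of all measured genes, and their median log2 ratio was 3.08 against -0.22 over all genes. Many had few DMSO reads and passed the count minimum through MPS1i. With no minimum 39 of 40 were called higher. Among the RNA sensors, DDX58 (RIG-I) had 261 reads in DMSO and 2518 in MPS1i, at 3.67 [3.48, 3.86], and IFIH1 (MDA5) had 189 and 913, at 2.67 [2.44, 2.90]. Both sensors were thus higher by more than their counting error. Among the effectors, IFIT1, which binds RNA without a normal cap, had 45 and 824 reads, at 4.58 [4.16, 5.06]. The 2-5A synthetases, which activate RNase L, spread from OAS1 (107 and 440) to OAS2 (9 and 147). The members nearest to the threshold were DDX60 (215 and 491) at 1.59, HERC6 at 1.62 and PARP14 at 1.63. Counting at most 1 read per region left 11 of these genes measured and 8 called higher, with a median of 1.30.

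The promoters of the interferon and mitosis lists were searched for the motifs their regulators are known to bind, because the members of each list stood together. The replication and repair lists were searched for the same motifs. The windows ran from 250 bases before to 50 after the RefSeq start (GRCh38.p14), and 32 interferon, 34 mitosis, 32 replication and 23 repair genes were matched. Members were matched whether or not they were measured, so the shares describe the lists and not these data. The interferon-stimulated response element, bound by the factors that interferon activates, was searched on both strands as GAAA, any 2 bases, and GAAA again. It was present in 21 of 32 interferon promoters (65.6%) and in 3.6% of all 27305 promoters. The cell cycle homology region, bound by the MuvB complexes, was searched as TTTGAA, and the NF-Y box as CCAAT, both on both strands; these words can share a letter and were counted independently. TTTGAA was present in 26 of 34 mitosis promoters (76.5%) against 15.4% of all promoters, and CCAAT in 27 (79.4%) against 35.7%. In the replication and repair lists TTTGAA was present in 3.1% and 17.4% of matched promoters, and CCAAT in 62.5% and 47.8%. A match is a description of the letters, not a bound site. Of the interferon genes with more extreme intervals, MX2 and TRIM22 were absent from the promoter table and RSAD2 and CMPK2 had no match in their windows, so IFIT1 is shown, chosen after its window was seen to hold the motif. CCNB1 and CDC20 are the mitosis genes with the most extreme intervals. The 200 bases before each start follow, 5′ to 3′ on the gene's strand, with motif matches in capitals (the response element in IFIT1; CCAAT and, in CDC20, also TTTGAA or its reverse complement). They span chr10:89392423-89392622, chr5:69166950-69167149 and chr1:43358781-43358980, all on the plus strand.
IFIT1: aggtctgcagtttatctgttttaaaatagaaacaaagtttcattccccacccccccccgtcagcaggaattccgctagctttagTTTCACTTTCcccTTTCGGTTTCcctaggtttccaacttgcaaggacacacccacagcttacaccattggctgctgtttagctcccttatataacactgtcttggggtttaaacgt
CCNB1: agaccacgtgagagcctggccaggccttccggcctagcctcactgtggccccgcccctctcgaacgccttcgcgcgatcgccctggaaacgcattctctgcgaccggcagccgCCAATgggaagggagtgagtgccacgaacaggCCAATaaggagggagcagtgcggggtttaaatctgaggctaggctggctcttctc
CDC20: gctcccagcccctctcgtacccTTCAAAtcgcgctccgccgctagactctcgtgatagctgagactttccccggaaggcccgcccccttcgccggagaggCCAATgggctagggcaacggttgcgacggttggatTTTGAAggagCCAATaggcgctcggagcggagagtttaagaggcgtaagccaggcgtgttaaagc

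Antigen presentation and inflammatory genes were called in the higher direction, with few members measured. In antigen presentation 4 of 7 measured genes were called higher, against 12.8% of all genes, and 0 lower, and the median was 1.72. The MHC class I light chain gene B2M had 26 reads in DMSO and 129 in MPS1i, and the immunoproteasome subunit PSMB9 had 16 and 74. NLRC5, the class I transactivator, had 146 and 367. ERAP1 and PDIA3, which act in peptide trimming and loading, stood below 0, at -0.72 [-1.24, -0.23] and -0.85 [-1.48, -0.28], and were not called. In the inflammatory and NF-κB list 6 of 8 measured genes were called higher and 0 lower, with a median of 1.68. Several members of both lists had few DMSO reads and passed the count minimum through MPS1i. With no minimum, 7 of 14 antigen presentation and 13 of 20 inflammatory genes were called higher, against 4028 of 21478 of all genes. TNFAIP3, a brake on NF-κB, had 8 and 65 reads and the chemokine CCL5 had 7 and 52. NFKB1 went against these at -0.64 [-0.88, -0.40], with 441 and 215 reads. At most 1 read per region left 1 and 2 genes of these lists measured, none of them called, with an inflammatory median of -0.16.

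Among targets of p53, 4 of 17 measured genes were called higher and 0 lower, against 12.8% and 16.8% of all genes, and the median was 0.80. CDKN1A, the cyclin-dependent kinase inhibitor p21, had 35 reads in DMSO and 126 in MPS1i, at 2.23. BTG2, an antiproliferative cofactor, had 9 and 59, at 3.04 [2.09, 4.31], and the stress cytokine GDF15 had 28 and 95. SPATA18, a mitochondrial quality control gene, was the other called member, with 148 and 295. MDM2, the ubiquitin ligase of p53, had 1494 and 1890 reads and stood at 0.74 [0.64, 0.84], under the 2-fold rule. In the senescence list 4 of 11 measured genes were called higher and 1 lower, against the same shares of all genes. PLAUR, a receptor of the secretory list, had 103 and 189 reads. LMNB1, the lamin whose loss marks senescence, was the lower member, with 383 and 104 reads at -1.48 [-1.81, -1.17]. No member of either list was called when at most 1 read was counted per region.

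Mitosis genes were lower in their gene sums. Of 36 measured genes 21 were called lower and 0 higher, against 16.8% of all genes called lower, with a median of -1.38. TTK itself, the gene of the inhibited kinase, had 109 reads in DMSO and 34 in MPS1i, at -1.27 [-1.88, -0.72]. CCNB1, the cyclin that drives mitotic entry, had 224 and 28, at -2.58 [-3.22, -2.03]. CDC20, the activator of the anaphase-promoting complex on which the checkpoint acts, had 47 and 3, at -3.37 [-5.90, -1.94]. The spindle gene ASPM had 936 and 162 reads and the topoisomerase gene TOP2A 259 and 48. The proliferation marker MKI67, with 107 and 50 reads, stood at -0.69 [-1.21, -0.20] and was not called, nor were CDK1 (586 and 259) or CENPA (2354 and 1091). CCNA2, at 28 and 27 reads, was the member that did not stand below 0. Of 25 members measured with at most 1 read per region, 15 were called lower, with a median of -1.18. These sums need not hold for exons. In exon-overlapping regions KIF20B, CDK1 and KIF2C stood at 0.25, -0.29 and -0.42, and elsewhere at -1.73, -1.99 and -1.67. CENPA went the other way, at -1.03 in exon-overlapping regions and -0.69 elsewhere.

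Replication and DNA repair genes shared that direction in their gene sums. In the replication list 16 of 31 measured genes were called lower and 1 higher, against 16.8% and 12.8% of all genes. The median was -1.16. CDC45 and MCM6 led the list. The higher member was CCNE2, a cyclin of S phase entry, with 23 reads in DMSO and 77 in MPS1i, at 2.12 [1.45, 2.88]. POLD3, a polymerase delta subunit, stood at 0.40 with 269 and 270 reads. In the repair list 15 of 28 measured genes were called lower and 0 higher, against the same shares of all genes, with a median of -1.06. FANCI of the Fanconi anaemia pathway had 349 and 54 reads, at -2.28 [-2.74, -1.88], and XRCC2, a gene of homologous recombination, had 271 and 48. BRCA1 had 286 and 81, and BRCA2 210 and 43. NBN, of the double-strand break sensing complex, stood apart at 0.44 [0.27, 0.61]. Exons did not always follow these sums. In exon-overlapping regions the repair genes ATM, CHEK1, WRN and XRCC5 stood at 1.65, 0.43, 0.77 and 0.55, and elsewhere between -1.23 and -1.5. The repair genes FANCD2 and EXO1 and the replication genes POLE and POLA1 stood below 0 in both parts.

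Chromatin silencing genes were also lower in their gene sums. Among writers and readers of silent chromatin 12 of 22 measured genes were called lower, against 16.8% of all genes, and 0 higher; the median was -1.03. CBX5, which encodes HP1-alpha, had 229 reads in DMSO and 57 in MPS1i, and MORC2, of the HUSH silencing pathway, had 187 and 48. The maintenance DNA methyltransferase DNMT1 had 147 and 43. EED, a Polycomb subunit, went the other way at 0.93 [0.75, 1.11] without reaching 2-fold. These sums also need not hold for exons. In exon-overlapping regions EHMT1 and TET2 stood at 1.43 and 0.60, and elsewhere at -0.46 and -0.54. The Polycomb gene EZH2 showed the reverse, at -0.99 in exon-overlapping regions and 0.19 elsewhere. In the TGF-beta, Wnt and YAP list 8 of 19 measured genes were called lower and 0 higher, against 16.8% and 12.8% of all genes, with a median of -0.92. The lower calls were led by SMAD4 and by ZNRF3 (670 and 137), which removes Wnt receptors from the surface. Members stood above 0 in 31.6% of cases without being called higher, among them the YAP paralog gene WWTR1 at 0.76 [0.53, 0.99] and the receptor gene TGFBR1 at 0.54 [0.41, 0.68].

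Cholesterol and lipid synthesis genes were called in the lower direction in their gene sums, while 21.7% of measured members stood above 0 without being called. Of 23 measured genes 11 were called lower and 0 higher, against 16.8% and 12.8% of all genes, with a median of -0.78. ACACA, which makes malonyl-CoA for fatty acid synthesis, had 3610 reads in DMSO and 613 in MPS1i, at -2.16 [-2.29, -2.04]. MVK, the mevalonate kinase, had 109 and 16. HMGCS1, an early enzyme of the mevalonate pathway, stood at 0.79 [0.69, 0.88] with 1547 and 2027 reads, and IDI1 at 0.74 with 200 and 254. Of 13 members measured with at most 1 read per region, 2 were called lower.

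The other lists held fewer calls, many of them in both directions. Over all measured genes 12.8% were called higher and 16.8% lower, and the autophagy, MAPK and adhesion lists stood near these shares. RNA processing had 6 of 20 measured genes lower and 1 higher. The splicing factor gene U2AF2 had 321 reads in DMSO and 50 in MPS1i, whereas ADAR, the interferon-inducible editor of double-stranded RNA, had 385 and 705, at 1.27 [1.09, 1.45]. Nuclear-encoded mitochondrial genes had 7 of 26 lower and 2 higher, with ATP5F1A (85 and 18) and NDUFS4 (285 and 79) low and the mitochondrial exoribonuclease PNPT1 (202 and 341) high. Targets of NRF2, a factor known to be active in many lung adenocarcinoma lines, had 2 higher and 2 lower of 21. These were FTH1 (77 and 233) and HMOX1 (81 and 125) against GSR (1017 and 228) and ABCC3 (972 and 341), so iron and heme genes and a glutathione reductase stood on opposite sides; HMOX1, at 1.02, was under 2-fold with sums outside the mitochondrial genome or DESeq2 size factors as the scale. Autophagy genes had 3 higher and 4 lower of 19, among them the receptors OPTN (13 and 63) and CALCOCO2 (86 and 146) against ATG13 (103 and 25) and ULK1 (124 and 45). In the unfolded protein and amino acid stress list 1 of 15 was higher, the immediate early factor ATF3 (70 and 544), and 2 were lower, SLC3A2 (181 and 46) and TRIB3 (182 and 61).

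In the MAPK list 2 of 16 measured genes (12.5%) were higher and 3 (18.75%) lower, near the shares of all genes, 12.8% and 16.8%. The feedback inhibitor SPRY4 had 27 reads in DMSO and 84 in MPS1i and the AP-1 gene FOSL1 had 66 and 139, while the kinase gene BRAF had 702 and 201. Adhesion genes, also near those shares, had 3 higher and 4 lower of 19. The intermediate filament gene VIM (18 and 38) was high and the laminin genes LAMA3 (1135 and 303) and LAMC1 (412 and 127) low. Hypoxia and glycolysis genes had 2 higher and 1 lower of 19, TPI1 (81 and 226) and NDRG1 (156 and 341) against PFKL (79 and 13), and 4 lower when scaled outside the mitochondrial genome. Of 20 ribosomal protein genes 2 were higher, RPL37A and RPL27A, and 2 lower, RPL32 and RPL13A; their reads can be shared with near-identical pseudogenes. KRAB zinc finger genes had 3 of 13 lower, with ZNF431 (68 and 15) the farthest. Hosts of small nucleolar RNAs and other noncoding RNAs had 3 of 9 lower and 0 higher, with SNHG16 (139 and 15) and ZFAS1 (3586 and 1039) low. Histone genes, whose members are near-identical copies, had 4 of 5 measured higher and 0 lower, with HIST1H2BD at 43 and 171 and HIST1H2BG at 51 and 180.

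**Figure D3:**
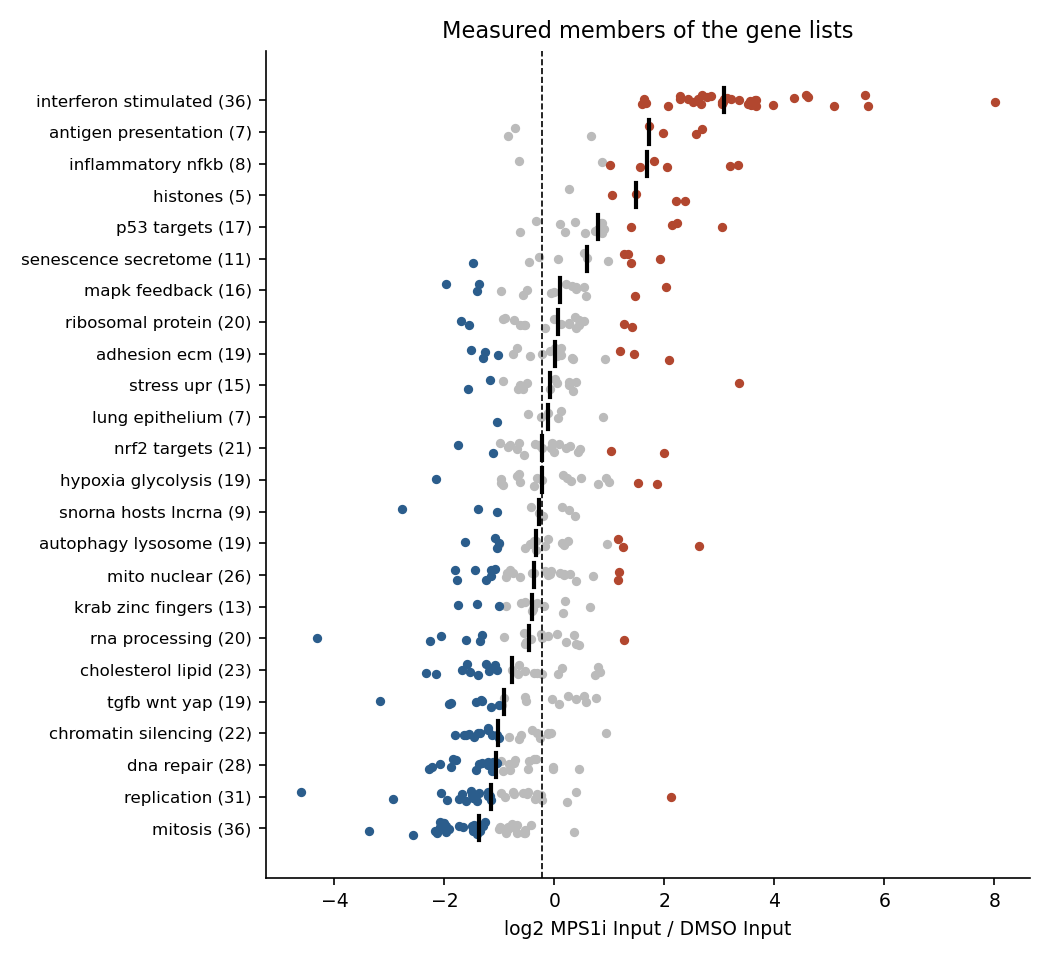
Log2 ratio MPS1i over DMSO of each measured member of the gene lists with at least 5 measured genes (number in brackets); red points are called higher, blue points lower, grey points neither, black bars are list medians and the dashed line is the median of all measured genes at -0.22. Interferon-stimulated genes have the highest median, 3.08, and mitosis genes the lowest, -1.38.

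The lung epithelial label was checked against its markers. KRT18 (2405 and 3386 reads in DMSO and MPS1i), KRT8 (430 and 343), KRT7 (261 and 167) and CDH1 (141 and 116) were present, whereas KRT19, SFTPB and SFTPC had 0 reads in both and NKX2-1 had no region. Of 7 measured markers 1 was called, lower, against 16.8% of all genes called lower. Among 13 fibroblast markers 2 were measured and both were higher, FAP (15 and 154) and COL5A1 (14 and 53), while the defining COL1A1 was at 0 in both libraries and COL1A2 and DCN had 0 and 1. FAP and COL5A1 passed the count minimum through their MPS1i reads. No leukocyte or endothelial marker reached 50 counts: PTPRC had 0 and 12, TEK 1 and 20, and CDH5 and CLDN5 were at 0 in both. Only 7243 of 1145382 sense regions overlap an annotated exon, so 0 reads or no region need not mean an absent transcript. The part of these markers in the results was not tested.

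Beyond single genes, the libraries differed in where their RNA lay. RNA on the strand of an annotated gene (GENCODE release 29) took 53.7% of DMSO reads and 48.6% of MPS1i reads, a log2 ratio of -0.15. RNA antisense to genes took 10.7% and 13.1%, at 0.30, and RNA outside genes 11.2% and 18.1%, at 0.69. The remainder was mitochondrial. At equal depth outside the mitochondrial genome, MPS1i had reads in 279454 sense regions against 645302 in thinned DMSO, or 43.3%. It had reads in 143934 regions outside genes against 141110, and in 61450 antisense regions against 61783. The deficit of detected regions thus lay on the sense strand of genes.

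Within genes the sense deficit was intronic. Sense regions that overlap an exon held 638915 reads in DMSO and 637494 in MPS1i, a log2 ratio of 0.39, and sense regions overlapping none held 2790762 and 1715359, at -0.30. In the annotation deposited with the regions, intergenic regions stood at 0.60, promoter-TSS at 0.32, 5' UTR at 0.30, TTS (transcription termination site) at 0.19, exon at 0.08, non-coding at 0.06, 3' UTR at -0.09 and intron at -0.12. That annotation does not use strand. Of the DMSO reads in its exon class, 92.1% lay in regions that overlap an exon only on the opposite strand, and 80.0% in its 3' UTR class. Its exon and 3' UTR values therefore do not measure mature transcripts. Its intron class held 542395 and 553159 reads in regions overlapping an exon on their strand, at 0.43. Intron-class regions overlapping no exon on either strand stood at -0.32, so the intron value does not measure introns alone.

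The same contrast was seen gene by gene. Of 1571 genes with at least 20 counts in exon-overlapping and in other regions, 616 (39.2%) had an exon signal higher relative to the intronic one by 2-fold or more and 86 (5.47%) lower, with intervals excluding 0. The median log2 ratio was 0.30 for exon-overlapping regions and -0.52 for the others, with a median difference of 0.73. The genes named here were chosen after their values were seen, as those with many exon reads. TXNRD1, the thioredoxin reductase, had 39875 exon reads in DMSO and 38045 in MPS1i, at 0.33, against 11634 and 3342 intronic reads, at -1.40. CPS1, the urea cycle carbamoyl phosphate synthetase, had 13013 and 12755 exon reads, at 0.37, against 10761 and 2562 intronic reads, at -1.67. HNRNPC, an RNA-binding protein of nascent transcripts, stood at 0.64 in exons and -1.27 elsewhere. For these 3 genes the exonic and intronic ratios differed by more than counting error and had opposite signs. RPS6, with 14215 and 11747 exon reads, had 41 and 3 reads elsewhere. AKR1C1 did not show the contrast, at 0.41 and 0.44, and it shares sequence with its paralogs.

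**Figure D4:**
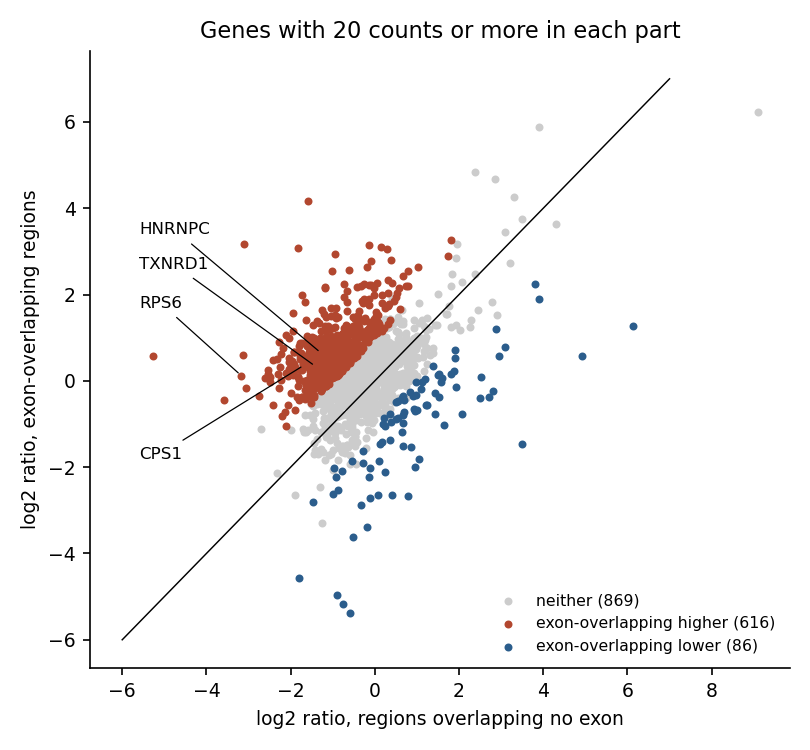
Log2 ratio MPS1i over DMSO in regions overlapping no exon (x) and in exon-overlapping regions (y) of 1571 genes, with the line of equal values; red genes have the exon-overlapping part higher by 2-fold or more (616) and blue genes lower (86). TXNRD1, CPS1, HNRNPC and RPS6 lie left of the line with exon values between 0.12 and 0.64.

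The intronic deficit was larger toward the gene end. In protein-coding genes of at least 10 kb, regions without exon overlap stood at 0.08 [0.07, 0.09] in the first of 10 equal parts of the gene (226365 and 181432 reads), at -0.20 in the second, -0.36 in the third and -0.47 in the fifth. The last 4 parts lay between -0.53 and -0.59, the latter [-0.60, -0.58] in the ninth part with 259079 and 130402 reads. By gene, 1632 of 6990 (23.3%) had the part after the midpoint lower than the part before it by 2-fold or more and 692 (9.9%) had it higher, with a median difference of -0.32. The gap between the ends of the gene was thus much larger than its counting error in the sums, while most single genes did not pass.

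After the gene end the direction turned. Regions outside genes were grouped by their distance from the nearest gene end upstream on the same strand. They stood at 0.41 within 1 kb, 0.47 from 1 to 5 kb, 0.61 from 5 to 10 kb, 0.89 from 10 to 20 kb, 0.96 from 20 to 50 kb, 0.94 from 50 to 100 kb and 0.71 beyond 100 kb. From 20 to 50 kb the counts were 79087 in DMSO and 116713 in MPS1i. Regions beyond 10 kb were therefore higher than those just after the end. Of 2434 genes with at least 20 counts in the gene and in the 10 kb downstream, 1014 (41.7%) had the downstream signal higher relative to the gene by 2-fold or more. In 173 (7.11%) it was lower, and the median difference was 0.79. A flank with few DMSO reads can pass that minimum only through MPS1i, so the minimum shapes these shares. The leading genes, chosen after their values were seen, combined a low gene body with a high flank. CA12, a carbonic anhydrase, had 2095 and 734 reads in the gene, at -1.12, and 9 and 119 downstream, at 4.05. XRN1, the 5'-3' exoribonuclease, had 320 and 95 in the gene and 1 and 25 downstream, and G3BP2, a stress granule protein, had 199 and 79 in the gene and 9 and 80 downstream.

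**Figure D5:**
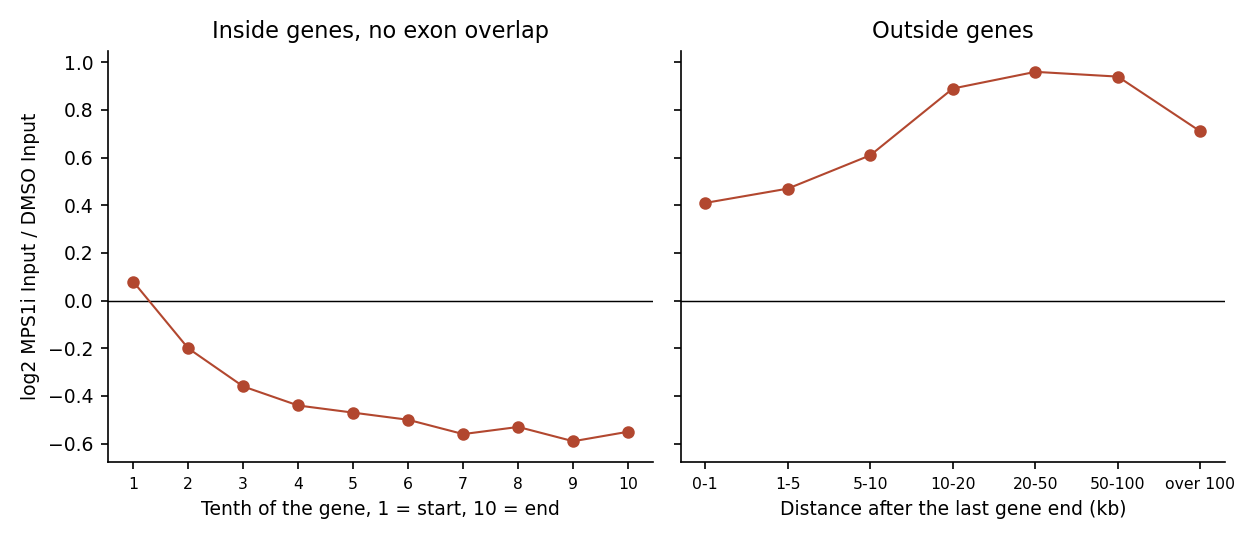
Log2 ratio MPS1i over DMSO of summed reads in regions without exon overlap along protein-coding genes of at least 10 kb, by 10 equal parts of the gene (left), and in regions outside genes by distance after the last gene end on the strand (right); counting intervals are smaller than the points. The ratio is 0.08 in the first part and -0.59 in the ninth, and lies between 0.41 and 0.96 after the gene end.

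Of 16 interferon-stimulated genes with at least 20 counts in each part, 3 had the downstream part higher by 2-fold or more, 1 had it lower and 12 were not called, against 41.7% higher and 7.11% lower of all genes compared. IFIT5 had 6 reads in DMSO and 50 in MPS1i inside the gene but 14 and 913 in the 10 kb after it, at 6.37. SAMD9, an antiviral restriction factor, had 15 and 97 inside and 2 and 179 after. IFI44L had 39 and 182 inside and 41 and 761 after, and these 3 were the called genes. MX1, with 57 and 370 inside and 71 and 845 after, was under 2-fold. BST2 (tetherin) was the lower gene, with 16 and 80 inside and 12 and 18 after.

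Single regions with at least 50 counts numbered 16948, of which 2765 (16.3%) were called higher and 2443 (14.4%) lower. Of the 5 highest, the file names 3 for IFIT5, 1 for SLC16A12-AS1 on the same stretch of chromosome 10, and 1 for MX1 on chromosome 21. Apart from 1 region outside genes, all lay on the strand opposite to a gene. The chromosome 21 region lay opposite MX2. On the plus strand of chromosome 10 the region 89422222 to 89423832, outside annotated genes, had 7 reads in DMSO and 384 in MPS1i, and the region 89441077 to 89444099, the one named for SLC16A12-AS1, had 1 and 152. The region 89413814 to 89414563 had 1 and 180, and 89412139 to 89412922, over LTR12 and HERV9N-int sequence, had 3 and 200. On the minus strand of chromosome 21 the region 41376972 to 41409514 had 1 and 146. The 5 lowest were sense regions of host genes. An ITPR1 intron (chromosome 3, 4685765 to 4686388, which the file names for EGOT) had 77 and 0 reads, at least 19.5-fold lower in MPS1i. SNHG16 (chromosome 17, 76561775 to 76562443) had 109 and 1, and introns of ASS1 and GIGYF2 (named for KCNJ13 in the file) had 72 and 0 and 70 and 0. The AKR1C2 intron (chromosome 10, 4990058 to 4990967) had 341 and 10.

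Intronic and 3' end signal were also compared by the file's own gene names and classes, with 3' UTR and TTS together as the 3' end. Of 3418 genes, 804 (23.5%) had the 3' end higher relative to the intron and 397 (11.6%) lower, with a median difference of 0.29. With 3' UTR regions alone as the 3' end the counts were 192 higher and 179 lower, and with TTS regions alone 658 and 244. A further comparison, chosen after seeing the data, was restricted to the gene's strand and left out exon-overlapping intron regions. There the 3' end was higher in 277 of 1129 genes (24.5%) and lower in 114 (10.1%). The medians were -0.45 for introns and -0.04 for 3' ends. The strand mattered for named genes. By file names ACO1, the cytosolic aconitase, led the higher group, with 750 and 220 intron-class and 28 and 164 end reads. It was followed by RNF144A, TM2D3, CIPC, TAMM41, PWWP2B, LOC339666 and TAS2R31. DDX58 led the lower group, with 261 and 2518 intron-class reads, as many as its whole gene sum, and 39 and 23 end reads. That gene sum includes exons, which stood at 4.26 against 3.31 for its other regions. DDX58 was followed by MXD1, CPNE5, MAPK15, MYH15, POU2F3, SNORA24 and SULT1C2P1. On the gene's strand, TAMM41 and MXD1 were the only genes of these 16 among the 8 leading genes of either direction. TAMM41, a mitochondrial cardiolipin synthesis enzyme, had 176 and 63 intronic and 3 and 24 end reads, and MXD1, a MYC antagonist, had 10 and 43 intronic and 21 and 3 end reads. ZNF318 (45 and 13 in introns, 1 and 26 at the end) led the higher group on that basis, and its end passed the count minimum through MPS1i. Among the lists, NQO1, a NRF2 target, stood at -0.53 in introns and 0.79 at its 3' end.

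Noncoding genes and short genes stood above long protein-coding genes. The median log2 ratio was -0.30 over 8703 protein-coding genes, of which 919 were called higher and 1604 lower. It was 0.55 over 491 lincRNAs, with 178 (36.25%) higher and 27 (5.5%) lower. Over 566 antisense genes it was 0.20, with 147 (25.97%) higher and 40 (7.07%) lower. The shares over all measured genes were 12.8% higher and 16.8% lower. Among protein-coding genes the median was 0.26 up to 10 kb in length, -0.18 from 10 to 30 kb, -0.40 from 30 to 100 kb, -0.36 from 100 to 300 kb and -0.13 above. Read number moved with these values: the median was 0.19 in the least-read of 4 equal groups of genes and -0.41 in the most-read, and its part was not tested. Chromosomes ranged from -0.21 for chromosome 22 to 0.38 for chromosome 4 and 0.41 for X. Sense RNA stood between -0.44 (22) and 0.11, and RNA outside genes between 0.07 (16) and 1.09 (4).

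Mitochondrial RNA was 24.3% of DMSO and 20.2% of MPS1i reads, a log2 ratio of -0.27. With tRNA genes left aside, 5 of its 11 regions hold no annotated gene on their strand and 1 holds only MT-ND6. The other 5 span several genes each, so the genes of those 5 could not be separated. The MT-ND6 region also runs opposite plus-strand genes, so its reads do not measure MT-ND6 alone. The plus-strand region over the ribosomal RNAs MT-RNR1 and MT-RNR2 (543 to 2589) held 1213055 and 779770 reads, or 78.1% and 79.6% of the mitochondrial reads, at -0.24. The regions that follow it on that strand stood at -0.33 (2745 to 5401, with MT-ND1, MT-ND2 and part of MT-RNR2) and -0.43 (5434 to 7403, with MT-CO1). The next stood at -0.59 (7407 to 12417, with MT-CO2, MT-ATP8, MT-ATP6, MT-CO3, MT-ND3, MT-ND4L and MT-ND4). The last, with MT-ND5 and MT-CYB, returned to -0.21. The minus strand held 12696 and 5466 reads, at -0.82 [-0.86, -0.77]. Its region opposite the ribosomal RNAs (559 to 2589) had 3463 and 952, at -1.47, and the long region with MT-ND6 (2745 to 16569) had 8732 and 4260, at -0.64. Both strands were lower, the minus strand more so.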

How the data were processed

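TRIZOL and miRNeasy columns yielded the RNA, and stranded SMARTer total RNA libraries were converted for DNBSEQ, per the labels' protocols. Per the submitters' processing notes the build was GRCh38 (hg38), and the tools were STAR, featureCounts, HOMER, cutadapt, Trimmomatic and Trim Galore, named with no version or role. The authors deposited raw counts per stranded region. How regions were called and whether duplicates were removed is not given in the sources used here.

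Regions were joined to GENCODE release 29 with bedtools 2.31.1. A region overlapping exactly 1 gene on its strand was summed into it, which held 67.2% of DMSO and 57.5% of MPS1i reads outside the mitochondrial genome. Log2 ratios use a pseudocount of 0.5. Differences between 2 parts of a gene carry a delta-method 95% interval and need 20 counts in each part. A part with few reads in 1 library can pass that minimum only through the other. Scripts were tested on simulated data. Genes were named by the most extreme near bound of the interval: 10 in each direction overall and at most 2 in each direction in each of 27 lists, then the most-read members where fewer than 2 were called. Some genes the rule names are not reported here. Other list members in the text were chosen after their values were seen. The members and lists were chosen with earlier results of these data known. Alternatives used edgeR 4.0.16 TMM and DESeq2 1.42.0 size factors only as scalings; there is no p-value because each group has 1 library.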

Additional observations from a re-analysis of the deposited data

How the results depend on the processing

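No paired analysis was possible because each group held 1 library. Total counts of genes, list members and regions called stayed within 1.5 times under scaling outside the mitochondrial genome, TMM factors, DESeq2 size factors, scaling without the 100 most-read regions and thinning of DMSO. The scalings moved all log2 ratios by -0.08 to 0.01. Thinning moved list medians unevenly, interferon-stimulated genes to 2.91, hypoxia to -0.05 and autophagy to -0.18. Genes called higher and lower numbered 2469 and 2095 with a minimum of 20 counts, 662 and 1339 with 100, 4028 and 2403 with none, and 3437 and 1540 by the file's gene names. Lower calls outnumber higher ones at 50 counts, but not with 20, with none or by file names. At most 1 read per region gave 91 higher and 1064 lower, by construction on fewer genes measured, and 9 higher and 61 lower list members; by the file's gene names 134 list members were higher, and with no minimum 123. Without regions that have a region on the opposite strand, 68 genes were higher and 203 lower, of 725 measured, and 3 and 8 list members. Leaving out exon-overlapping regions, chosen after seeing the data, gave 1252 and 1913. Regions called higher and lower numbered 10931 and 9259 with a minimum of 20 counts, 980 and 748 with 100, and 99622 and 42637 with none.

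Annotation classes in the order 3' UTR, 5' UTR, intergenic, TTS, exon, intron, non-coding and promoter-TSS stood at -0.17, 0.23, 0.52, 0.11, 0.01, -0.20, -0.02 and 0.24 scaled outside the mitochondrial genome, where non-coding changed sign. With at most 1 read per region they were 0.22, 0.43, 0.75, 0.30, 0.52, -0.36, 0.26 and 0.42, where 3' UTR changed sign. By DESeq2 size factors they were -0.13, 0.27, 0.56, 0.15, 0.05, -0.16, 0.02 and 0.28, and without the 100 most-read regions the same but for 5' UTR at 0.26. By TMM factors intergenic was 0.61, TTS 0.20 and intron -0.11. The mitochondrial ratio without its most-read region was -0.37. The 3' end against intron counts, higher and lower, were 327 and 130 with 50 counts in each part, 192 and 179 for 3' UTR, 658 and 244 for TTS, and 277 and 114 on the gene strand. Downstream sums stood at 0.49 in 10 kb, 0.45 in 5 kb, 0.51 without the first 1 kb and 0.64 with at most 1 read per region. The sum after the gene midpoint minus that before it was -0.28 and, with at most 1 read per region, -0.23. Regions with at least 2 reads in MPS1i were 83.6% of those in thinned DMSO.

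List settings with a minimum of 100 counts, with none and without regions that have an opposite-strand region (at most 4 members measured in a list) were chosen after seeing the data. Values of single lists stayed close in 710 cases, moved in 114 and changed sign in 28. Of 284 list medians, 256 kept their sign. Those that changed sign were adhesion at -0.07 scaled outside the mitochondrial genome, -0.03 by DESeq2 size factors and without the 100 most-read regions, -0.06 thinned, -0.16 with 100 counts and -0.28 with at most 1 read; ribosomal proteins at -0.02 scaled outside the mitochondrial genome, -0.04 by file names, -0.18 with no minimum and -0.56 without exon-overlapping regions; hypoxia at 0.19 with 20 counts, with 100 and with none, and 0.30 with at most 1 read. By file names stress was 0.02, noncoding hosts 0.06 and lung epithelium 0.58; with no minimum stress was 0.01 and lung epithelium 0.09. With at most 1 read per region the inflammatory median was -0.16, NRF2 targets 0.12, MAPK -0.64 and noncoding hosts 0.18, and without exon-overlapping regions MAPK was -0.03. Without regions that have an opposite-strand region, cholesterol was 0.23, stress 1.89, MAPK -1.42 and lung epithelium 0.13. The cause of these changes was not tested.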
